A study of Mus musculus with 14 samples.

Results

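Transcripts of the T cell receptor constant genes and of the CD3 chains were followed in 2 populations of mouse innate lymphocytes that had been sorted as negative for CD3 protein. The set held 10 of the 46078 genes of the deposited count table: the constant genes Trac, Trbc1, Trbc2, Trdc, Tcrg-C1, Tcrg-C2 and Tcrg-C4, and Cd3d, Cd3e and Cd3g. The genes were selected by symbol, with earlier results of these same counts in view, among them a lower Trac in Il15cKO iILC1, so the differences of these 10 genes between groups are given as a description. All 10 passed the filter on low counts, although Tcrg-C1, Tcrg-C2, Tcrg-C4 and Cd3e had low counts in every iNK library.

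Bone marrow was taken from C57BL/6 mice aged 8 weeks, and 2000 cells were sorted per sample. The groups were iILC1 from Il15cKO mice (n = 4), iILC1 from Control mice (n = 3), iNK from Il15cKO mice (n = 4) and iNK from Control mice (n = 3). The iILC1 gate took cells with NK1.1, IL-7Ra and CD49a and without CD3, and the iNK gate took cells with NK1.1, DX5 and CD27 and without CD3, IL-7Ra and CD11b. Mice of both genotypes had one floxed and one deleted copy of Il15 (Il-15-flox/KO), and Il15cKO mice also carried Vav-Cre, a recombinase that works throughout the blood lineage, so that non-hematopoietic cells of Il15cKO mice keep the floxed allele. Whether each sample of a group is a different mouse is not in the labels, and p-values here reflect only how these samples vary. The comparisons share groups: each group enters one comparison of genotypes and one of cell types.

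The antigen receptor of a T cell is a pair of chains, alpha with beta or gamma with delta, each joined from variable and joining segments to a constant gene by recombination of its locus. The pair reaches the cell surface only with the CD3 gamma, delta and epsilon chains and the zeta chain, which carry the signal inward. NK cells and innate lymphoid cells have no surface receptor of this kind, but germline transcripts of unrearranged receptor loci and CD3 transcripts are known in these cells and in their precursors. In the mouse the beta locus has 2 clusters of joining segments, each followed by its own constant gene, and the gamma locus has several clusters of variable, joining and constant genes.

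The constant genes are shown first because their likeness decides how well their counts can be told apart. Trbc1 and Trbc2 are near copies: the first 90 bases of their first exons are the same letter for letter, and the 375 bases of the first exon differ at 1 base (99.73% identity). Of all stretches of 50 bases in the Trbc1 transcript, 41.13% occur in Trbc2. Of those in Tcrg-C1, 17.94% occur in Tcrg-C2 and 0 occur in Tcrg-C4. Counts of Trbc1 against Trbc2 and of Tcrg-C1 against Tcrg-C2 are therefore less certain than their sums, since the handling of reads that fit several places is not given in the sources used here. The lines below give the first 90 bases of the first constant exon, all coding, 5′ to 3′ on the gene's strand (GENCODE M21, build mm10), and capitals mark the bases at which Tcrg-C2 or Tcrg-C4 differs from Tcrg-C1.
Trbc1, chr6:41538218-41538307, plus strand: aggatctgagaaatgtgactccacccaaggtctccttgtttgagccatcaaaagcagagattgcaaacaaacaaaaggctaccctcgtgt
Tcrg-C1, chr13:19214103-19214192, plus strand: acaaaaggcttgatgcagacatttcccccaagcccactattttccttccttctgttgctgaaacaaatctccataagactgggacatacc
Tcrg-C2, chr13:19307462-19307551, minus strand: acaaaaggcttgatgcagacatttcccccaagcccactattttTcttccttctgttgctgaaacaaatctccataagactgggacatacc
Tcrg-C4, chr13:19344558-19344647, plus strand: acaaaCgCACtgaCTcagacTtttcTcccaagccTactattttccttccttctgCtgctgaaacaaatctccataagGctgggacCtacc
Trdc, chr14:54142851-54142940, plus strand: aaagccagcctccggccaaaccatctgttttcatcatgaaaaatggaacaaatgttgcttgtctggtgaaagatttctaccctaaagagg
Trac, chr14:54220521-54220610, plus strand: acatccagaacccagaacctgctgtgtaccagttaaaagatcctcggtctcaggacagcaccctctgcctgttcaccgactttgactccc
Within these 90 bases Tcrg-C2 differed from Tcrg-C1 at 1 base and Tcrg-C4 at 12 bases. Over the 330 bases of the first exon the identity to Tcrg-C1 was 97.27% for Tcrg-C2 and 82.12% for Tcrg-C4.

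Total counts were 5478641 to 10308693 in Il15cKO iILC1, 3512796 to 4933284 in Control iILC1, 6254844 to 12572326 in Il15cKO iNK and 6238016 to 8013984 in Control iNK libraries. Levels are given as CPM, the share of a library's counts on a scale corrected by TMM factors. Of the gated proteins, Il7r (IL-7Ra) averaged 646 and 408 CPM in Il15cKO and Control iILC1, against 22.3 and 8.37 CPM in Il15cKO and Control iNK, and Itga1 (CD49a) 60.9 and 62.6 CPM in iILC1 against 11.2 and 12.01 CPM in iNK, as gated. Itgam, the gene of CD11b, which the iNK gate leaves out, averaged 35.3 and 94.3 CPM in Il15cKO and Control iILC1, against 59.999 and 119 CPM in Il15cKO and Control iNK, so its RNA did not follow the gate. Eomes, an NK cell transcription factor outside the gates, averaged 94.3 and 132 CPM in the iILC1 groups against 804 and 731 CPM in the iNK groups. Smell and pheromone receptor genes (1669 genes), which lymphocytes should not use, served as a measure of background reads, and their 95th percentile was 4.92, 4.87, 4.58 and 3.65 CPM per kilobase of exon in the groups in the order above. Il15cKO iILC1 replicate 1 was the highest library of its group in all 10 members, and Control iILC1 replicate 2 the lowest of its group in 9 of 10. These libraries also had TMM factors at the ends of the iILC1 range, 0.803 in Il15cKO iILC1 replicate 1 and 1.24 in Control iILC1 replicate 2, and summed background genes at the ends of it, 1881 and 3539 CPM. The part of library quality in the members' values was not tested.

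Per kilobase of exon, Trbc1 was the most abundant member in all 4 groups. Its mean was 513 ± 136 CPM per kilobase in Il15cKO iILC1, 453 ± 104 in Control iILC1, 607 ± 62.1 in Il15cKO iNK and 592 ± 192 in Control iNK (SD). Trbc2 came second in every group, at 253 ± 116, 254 ± 86.5, 102 ± 16.6 and 133 ± 27.9 CPM per kilobase in the same order. In iILC1 the third was Tcrg-C4, with 213 ± 83.9 CPM per kilobase in Il15cKO and 127 ± 27.2 in Control, and Trbc2 and Tcrg-C4 did not differ beyond their spread in Il15cKO iILC1. The other 7 members of Il15cKO iILC1 lay between 7.39 (Trdc) and 27.2 (Cd3g) CPM per kilobase, and those of Control iILC1 between 10.95 (Trdc) and 59.9 (Cd3g). In iNK, Cd3d, Cd3g, Trdc and Trac lay between 15.7 and 22.7 CPM per kilobase in Il15cKO and between 18.2 and 24.3 in Control, without separation beyond their SDs within the Control group. Trdc was low on this scale because its annotated exons span 3865 bases. Tcrg-C1, Tcrg-C2 and Cd3e lay below the 95th percentile of background genes in both iNK groups, and Tcrg-C4 also did so in Il15cKO iNK, whereas all 10 members lay above it in both iILC1 groups.

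**Figure D1:**
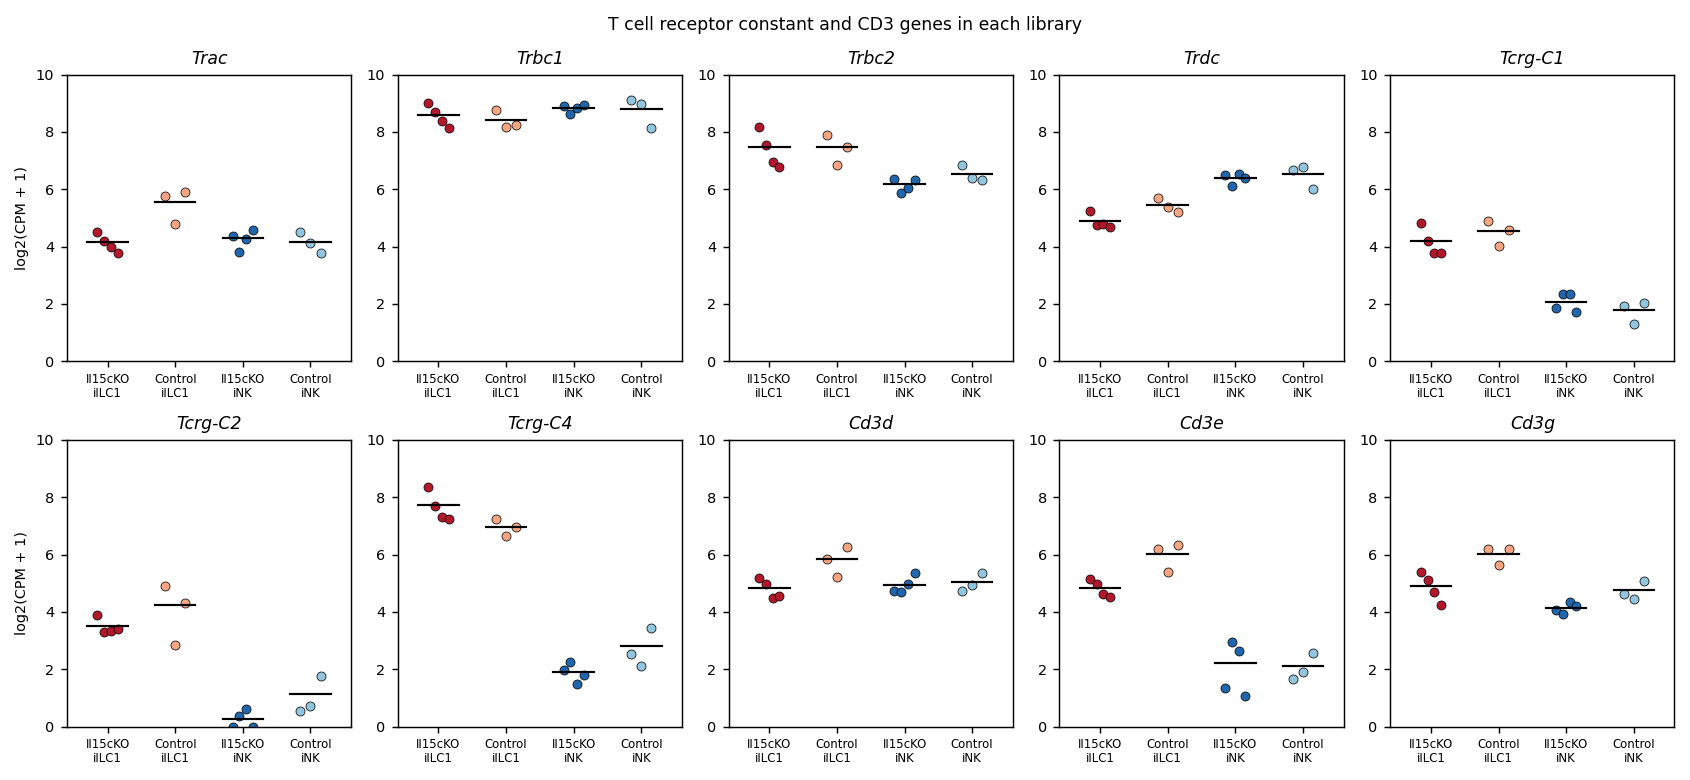
Each panel shows 1 gene, each point 1 library (y axis: log2(CPM + 1)) and each line the mean of a group, on the same scale in all panels. Trbc1 was high in all 4 groups, while Tcrg-C1, Tcrg-C2, Tcrg-C4 and Cd3e were far lower in iNK than in iILC1 libraries of both genotypes.

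The CD3 chains form the signalling part of the receptor complex, and all 3 were lower in Il15cKO iILC1 than in Control iILC1 libraries without overlap. Of all genes, 2.82% were lower without overlap in this comparison. Cd3e, for the epsilon chain (ENSMUSG00000032093, mm10 chr9:44998743-45009590, minus strand), had 34.2, 30.001, 23.9 and 22.0 CPM in Il15cKO iILC1, against 72.2, 40.5 and 79.3 CPM in Control iILC1. Its log2 fold change for genotype was −1.22 (SE 0.351). Cd3g, for the gamma chain (ENSMUSG00000002033, chr9:44969572-44980431, minus strand), had 40.5, 33.2, 25.0 and 17.9 CPM in Il15cKO iILC1, against 72.2, 48.3 and 71.8 CPM in Control iILC1. Every Control library lay above every Il15cKO library, and the log2 fold change was −1.13 (SE 0.248). Cd3d, for the delta chain (ENSMUSG00000032094, chr9:44981793-44987052, plus strand), had 35.6, 30.6, 21.2 and 22.6 CPM in Il15cKO iILC1, against 56.4, 35.8 and 75.5 CPM in Control iILC1. The gap between the nearest libraries of both genotypes was small for Cd3d, at 35.6 in Il15cKO against 35.8 CPM in Control, and its log2 fold change was −1.02 (SE 0.255). None of the 3 passed the threshold of edgeR's test over all genes. Summed over the 3 genes the level was 84.1 ± 21.9 CPM in Il15cKO iILC1 (n = 4) and 184 ± 53.0 CPM in Control iILC1 (SD, n = 3).

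In iNK cells the 3 CD3 genes stood apart from each other. Cd3d was as high in iNK as in Il15cKO iILC1, at 30.0 ± 6.84 CPM in Il15cKO iNK (n = 4) and 31.7 ± 7.48 CPM in Control iNK (SD, n = 3). Cd3e had only 1.53, 6.79, 5.20 and 1.11 CPM in Il15cKO iNK, from 10 to 49 counts, and 2.19, 2.78 and 4.96 CPM in Control iNK, from 14 to 31 counts. Cd3e thus made up 33.1% ± 1.91 of the CD3 sum in Il15cKO iILC1, 34.5% ± 1.76 in Control iILC1, 7.44% ± 5.88 in Il15cKO iNK and 5.27% ± 1.06 in Control iNK (SD), and the iILC1 and iNK libraries did not overlap in this share. Cd3g was intermediate, with 15.8, 14.3, 19.4 and 17.6 CPM in Il15cKO iNK against 23.9, 21.0 and 33.1 CPM in Control iNK. Cd3g was the only member whose iNK libraries did not overlap between the genotypes, with a log2 fold change of −0.63 (SE 0.254). The log2 fold change of Cd3e for iILC1 against iNK was 2.94 (SE 0.377) in Il15cKO and 4.27 (SE 0.457) in Control. The span of Cd3e in GENCODE M21 overlaps an antisense gene (Gm48719) and a gene on the same strand (Gm48720). Whether their exons overlap was not tested. Neither library kit marks the strand, so where exons overlap, reads of these genes cannot be told apart from reads of Cd3e.

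The promoters of the CD3 genes are shown because the 3 genes lie next to each other on chromosome 9 and had unlike levels in iNK cells. Each line holds 250 bases before to 50 after the start of the gene on its strand (RefSeq, GRCm38.p6), and capitals mark the E-box letters CANNTG, bound by E proteins, and the TCF core CTTTGA on either strand.
Cd3d, chr9:44981536-44981835, plus strand: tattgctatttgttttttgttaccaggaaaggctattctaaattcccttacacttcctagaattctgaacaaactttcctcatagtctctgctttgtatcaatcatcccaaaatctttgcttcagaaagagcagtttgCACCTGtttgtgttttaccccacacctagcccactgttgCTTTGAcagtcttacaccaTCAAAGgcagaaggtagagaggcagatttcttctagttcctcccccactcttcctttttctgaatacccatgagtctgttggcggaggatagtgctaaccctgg
Cd3e, chr9:45009562-45009861, minus strand: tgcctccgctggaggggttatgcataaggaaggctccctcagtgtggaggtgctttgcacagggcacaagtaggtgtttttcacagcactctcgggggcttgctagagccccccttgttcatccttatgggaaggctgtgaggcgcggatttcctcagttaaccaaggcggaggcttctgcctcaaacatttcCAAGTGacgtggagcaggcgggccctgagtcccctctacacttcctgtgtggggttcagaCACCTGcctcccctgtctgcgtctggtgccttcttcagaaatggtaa
Cd3g, chr9:44980382-44980681, minus strand: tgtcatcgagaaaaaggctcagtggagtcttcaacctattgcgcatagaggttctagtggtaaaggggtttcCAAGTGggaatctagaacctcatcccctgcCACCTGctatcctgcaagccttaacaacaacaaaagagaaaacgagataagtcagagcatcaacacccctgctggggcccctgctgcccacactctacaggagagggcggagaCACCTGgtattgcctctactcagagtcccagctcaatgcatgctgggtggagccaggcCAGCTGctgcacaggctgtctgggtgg
Cd3d held 1 E-box and 2 TCF cores, Cd3e 2 E-boxes and no TCF core, and Cd3g 4 E-boxes and no TCF core. Among 32851 RefSeq promoters of the same length, 72.31% held CANNTG and 16% held CTTTGA. The ETS core GGAA was in all 3, as in 95.98% of all promoters, and TATAAA was in none of the 3, against 13.62% of all promoters. These are matches of letters and not measured binding sites.

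Trac encodes the constant part of the alpha chain (ENSMUSG00000076928, chr14:54220521-54224206, plus strand). It had 21.7, 17.5, 14.95 and 12.6 CPM in Il15cKO iILC1, against 52.9, 26.6 and 58.3 CPM in Control iILC1. The libraries of both genotypes did not overlap, and the log2 fold change was −1.46 (SE 0.272). In iNK Trac was at 18.6 ± 4.04 CPM in Il15cKO (n = 4) and 17.0 ± 4.48 CPM in Control (SD, n = 3), close to Il15cKO iILC1. Trac was the only member called lower for genotype in iILC1, and it lost that call without Il15cKO iILC1 replicate 2 or 3 or Control iILC1 replicate 1 or 3, with log2 fold changes of −1.73 to −1.24 over all alternatives.

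The beta constant genes did not follow Trac. Trbc1 (ENSMUSG00000076490, chr6:41538218-41539881, plus strand) had 512, 415, 329 and 280 CPM in Il15cKO iILC1 and 429, 287 and 304 CPM in Control iILC1. In iNK it had 481, 389, 456 and 493 CPM in Il15cKO and 552, 498 and 280 CPM in Control. The libraries of all 4 groups overlapped, with log2 fold changes for genotype of 0.18 (SE 0.253) in iILC1 and 0.04 (SE 0.252) in iNK. Trbc2 (ENSMUSG00000076498, chr6:41546730-41548352, plus strand) had 284, 186, 122 and 109 CPM in Il15cKO iILC1 and 234, 114 and 178 CPM in Control iILC1. In iNK Trbc2 was at 81.4, 57.8, 64.5 and 79.4 CPM in Il15cKO and 114, 82.8 and 79.2 CPM in Control. Trbc2 differed by cell type in Il15cKO, with a log2 fold change of iILC1 against iNK of 1.31 (SE 0.26), and by 0.93 (SE 0.299) in Control, where the libraries overlapped. Trbc1 made up 69.6% ± 3.88 of the Trbc sum in Il15cKO iILC1, 66.4% ± 4.48 in Control iILC1, 86.6% ± 0.929 in Il15cKO iNK and 82.2% ± 3.94 in Control iNK (SD), with no overlap between iILC1 and iNK libraries. The sum of Trac, Trbc1 and Trbc2 was 576 ± 185, 561 ± 145, 544 ± 61.1 and 552 ± 163 CPM in the same order.

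The joining segments of the beta locus had the same asymmetry between the clusters. The 7 rows of the first cluster (Trbj1, chr6:41533864-41535687), which precede Trbc1, summed to 329 ± 61.4 CPM in Il15cKO iILC1, 279 ± 52.2 in Control iILC1, 463 ± 83.4 in Il15cKO iNK and 411 ± 164 in Control iNK (SD). The 7 rows of the second (Trbj2, chr6:41542754-41543856), which precede Trbc2, summed to 24.9 ± 10.2, 24.1 ± 5.51, 9.82 ± 5.50 and 13.7 ± 3.35 CPM. The first cluster thus held 93.1% ± 1.32, 92.1% ± 0.707, 98.01% ± 0.806 and 96.6% ± 0.763 of the joining counts. Beta variable segments were low: 34 Trbv rows summed to 53.1 ± 4.86 CPM in Il15cKO iILC1, 80.1 ± 18.3 in Control iILC1, 38.2 ± 8.08 in Il15cKO iNK and 31.2 ± 9.001 in Control iNK. Counts per row do not show whether a read came from a rearranged or a germline transcript.

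The delta constant gene Trdc (ENSMUSG00000104876, chr14:54142851-54148868, plus strand) went the other way between cell types. It had 36.8, 26.1, 26.7 and 24.7 CPM in Il15cKO iILC1 and 50.3, 41.1 and 35.5 CPM in Control iILC1. In iNK it was at 89.2, 68.2, 92.4 and 82.4 CPM in Il15cKO and 100.4, 109 and 62.7 CPM in Control. All iNK libraries lay above all iILC1 libraries, with log2 fold changes of iILC1 against iNK of −1.54 (SE 0.209) in Il15cKO and −1.11 (SE 0.24) in Control. For genotype the log2 fold change was −0.56 (SE 0.225) in iILC1 and −0.13 (SE 0.218) in iNK, and the libraries overlapped in both. The span of Trdc in GENCODE M21 overlaps an antisense gene (Gm43434) and Trdv5 on the other strand. Whether their exons overlap was not tested, and where they do, their reads cannot be told apart here.

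The gamma constant genes were the members with the widest range between cell types. Tcrg-C4 (ENSMUSG00000076757, chr13:19344558-19352756, plus strand) had 328, 205, 158 and 149 CPM in Il15cKO iILC1 and 152, 98.2 and 124 CPM in Control iILC1. In iNK it had 2.91, 3.74, 1.82 and 2.47 CPM in Il15cKO, from 14 to 29 counts, and 4.84, 3.27 and 9.76 CPM in Control, from 20 to 61 counts. The log2 fold change of iILC1 against iNK was 6.27 (SE 0.339) in Il15cKO and 4.38 (SE 0.358) in Control. For genotype Tcrg-C4 was 0.75 (SE 0.281) on the log2 scale in iILC1 and −1.13 (SE 0.362) in iNK, with overlapping libraries in both cell types. Tcrg-C1 (ENSMUSG00000076749, chr13:19214103-19217024, plus strand) had 27.5, 17.1, 12.7 and 12.6 CPM in Il15cKO iILC1 and 28.96, 15.1 and 22.9 CPM in Control iILC1, against 2.30 to 4.03 CPM in Il15cKO iNK and 1.47 to 3.04 CPM in Control iNK. Its log2 fold change for iILC1 against iNK was 2.44 (SE 0.326) in Il15cKO and 3.17 (SE 0.4) in Control. The iILC1 and iNK libraries of Tcrg-C1 did not overlap in either genotype, and those of the genotypes overlapped in both cell types.

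Tcrg-C2 (ENSMUSG00000076752, chr13:19304649-19307551, minus strand) had 13.7, 8.94, 9.07 and 9.66 CPM in Il15cKO iILC1 and 29.2, 6.16 and 18.7 CPM in Control iILC1. In Il15cKO iNK the 4 libraries held 0, 2, 4 and 0 counts, and the libraries at 0 allow up to 0.459 and 0.256 CPM (3 counts). In Control iNK they held 3, 4 and 15 counts, or 0.469, 0.655 and 2.40 CPM. The iILC1 libraries lay above all iNK libraries in both genotypes. From the 319 and 6 counts in all, the level in Il15cKO iILC1 was 57.7 times that in Il15cKO iNK (95% interval 26.2 to 158, exact and for counting error only). Tcrg-C4 made up 88.1% ± 0.859 of the counts of these 3 genes in Il15cKO iILC1 and 76.5% ± 5.14 in Control iILC1 (SD), without overlap.

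The gamma variable row and the gamma joining row with the highest mean CPM in both iILC1 groups were neighbours of Tcrg-C4. Tcrg-V1 (chr13:19339989-19340454) and the joining segment Trgj4 (chr13:19342152-19342212) lie just before Tcrg-C4 on the same strand. Tcrg-V1 averaged 20.1 ± 5.99 CPM in Il15cKO iILC1 and 14.97 ± 7.73 CPM in Control iILC1, against 0.164 ± 0.123 CPM in Il15cKO iNK and 1.12 ± 1.25 CPM in Control iNK (SD). Trgj4 had 191 counts in Il15cKO iILC1 against 2 in Il15cKO iNK (103.6 times, 95% exact counting interval 28.3 to 862), and 50 counts in Control iILC1 against 5 in Control iNK. Both rows were named after their values were seen and passed the filter through iILC1, so these values are a description with no test. The other joining rows of the locus, Trgj1, Trgj2 and Trgj3, stayed below the filter. Tcrg-C3, a gamma constant gene outside the set, averaged 1.5 ± 0.766 CPM in Il15cKO iILC1 and 1.82 ± 0.37 CPM in Control iILC1, against 0.653 ± 0.273 CPM in Il15cKO iNK and 0.8 ± 0.831 CPM in Control iNK. These segments belong to the same loci and the same libraries as the constant genes and are no independent support for them.

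**Figure D2:**
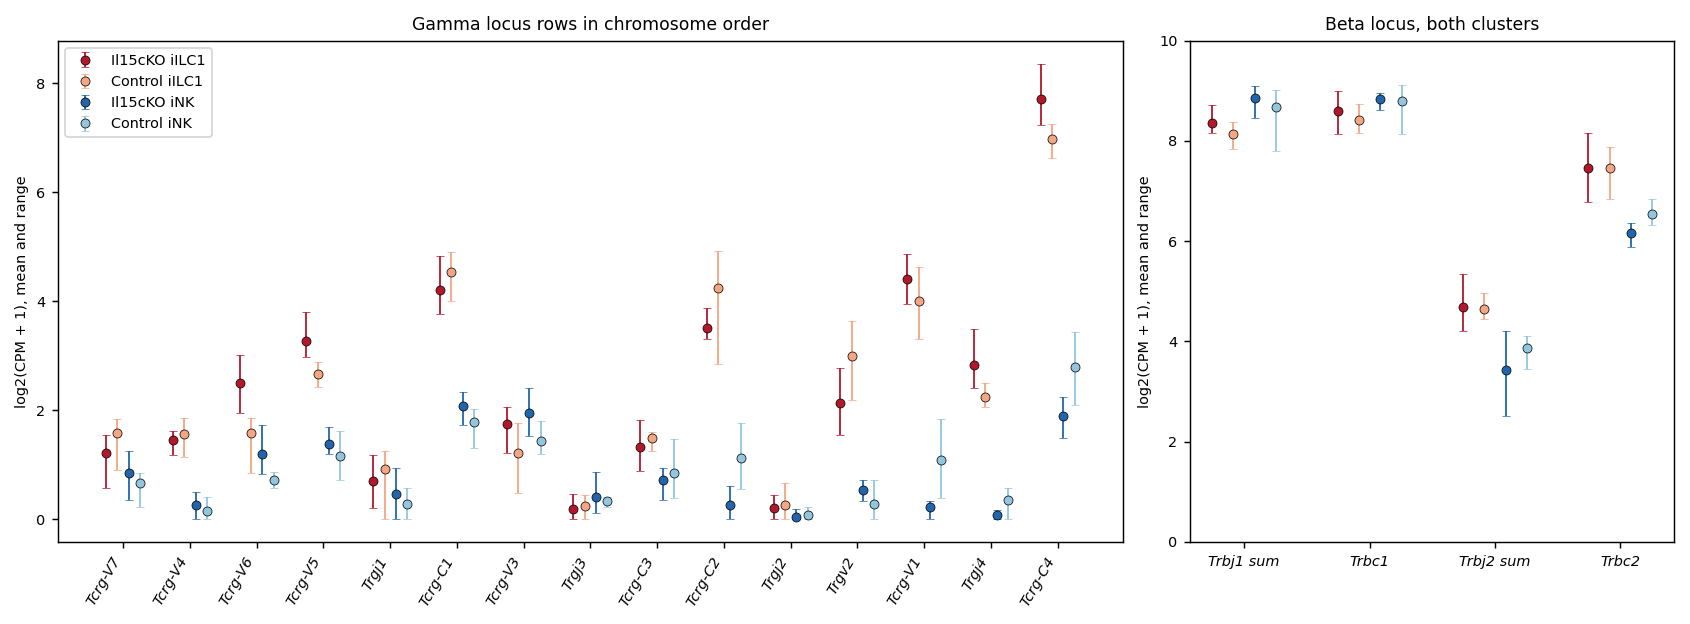
Points show group means and bars the lowest to highest library (y axes: log2(CPM + 1)) for gamma locus rows in chromosome order (left) and for the joining sums and constant genes of both beta clusters (right). Tcrg-V1, Trgj4 and Tcrg-C4 stand high in the iILC1 groups at the end of the gamma locus, and the first beta cluster stands above the second in all 4 groups.

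Of the variable and joining segments of all 4 loci, 77 passed the filter. For cell type in Il15cKO, 10 were called higher and 2 lower in iILC1 (3.42% of all genes called). Among them were 2 of 17 tested Trbv rows and 5 of 7 tested gamma variable rows. In Control, 15 were called higher and 1 lower (3.91% of all genes called), with 8 of 17 Trbv rows and 4 of 7 gamma variable rows. Several, such as Trbv3 with 0 to 4 counts per iNK library, passed the filter through iILC1, so these counts are a description. Trdj1, a delta joining segment named after its values were seen, had 2.44 ± 0.67 CPM in Il15cKO iILC1 against 10.9 ± 0.483 CPM in Il15cKO iNK, and 2.59 ± 1.00 CPM in Control iILC1 against 11.1 ± 3.04 CPM in Control iNK (SD). The Trbv calls rest on few counts, and 7 of the 8 in Control were lost without at least 1 of Control iILC1 replicate 3 and Control iNK replicates 1 and 2. DESeq2 called 15 segments for cell type in Il15cKO, where edgeR called 12, and 4 in Control, where edgeR called 16. The share of all genes that DESeq2 called was not counted. For genotype in iILC1, edgeR (0.0482% of all genes called) and DESeq2 called 0 of the 77 segments, and 3 had an unadjusted p under 0.05 in edgeR's test.

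Trdv4, a delta variable segment (chr14:54074905-54075515, plus strand), was the single segment called for genotype in iNK (0.408% of all genes called). It had 7.95, 8.74, 7.93 and 8.35 CPM in Il15cKO iNK, against 39.04, 24.6 and 23.03 CPM in Control iNK. The fall was −1.81 on the log2 scale (SE 0.25, edgeR's adjusted p = 0.000125), and the libraries did not overlap. In iILC1 it was at 63.0, 43.2, 37.5 and 34.3 CPM in Il15cKO and 59.7, 44.1 and 39.6 CPM in Control, and these overlapped. The genotype effect in iILC1 minus that in iNK was 1.71 (SE 0.348, edgeR's adjusted p = 0.0448), a call that RLE scaling and most single libraries left out removed. Trdc itself overlapped between the genotypes in iNK.

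The counts of members called are set here beside the same counts over all 26990 genes tested, and nothing is read from them. For genotype in iILC1, 1 member was called, lower (0.0482% of all genes called), and 4 did not overlap, all lower (2.82% of all genes lower without overlap and 2.66% higher). For genotype in iNK, 0 members were called by edgeR (0.408% of all genes, with 3 members at an unadjusted p under 0.05 and 1, Tcrg-C2, called by DESeq2), and 1 did not overlap, lower (4.75% lower, 4.09% higher). For iILC1 against iNK in Il15cKO, 5 members were called higher and 1 lower (3.42%), and the same numbers did not overlap (3.52% higher, 3.08% lower). In Control, 6 were called higher and 1 lower (3.91%), again with the same numbers without overlap (12.0% higher, 13.0% lower). Tcrg-C2 was among those called higher in both genotypes. Its iNK libraries held 0 to 15 counts and it passed the filter through iILC1, so its calls are a description. For the genotype effect in iILC1 minus that in iNK, 0 members were called by edgeR (0.0778% of all genes, with 4 members at an unadjusted p under 0.05), and DESeq2 called 1, Tcrg-C4. The median log2 fold change of the 10 members was −0.67 for genotype in iILC1 (0.01 over all genes) and −0.10 for genotype in iNK (0.06). It was 1.05 for cell type in Il15cKO (0.01) and 1.37 in Control (0.16).

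**Figure D3:**
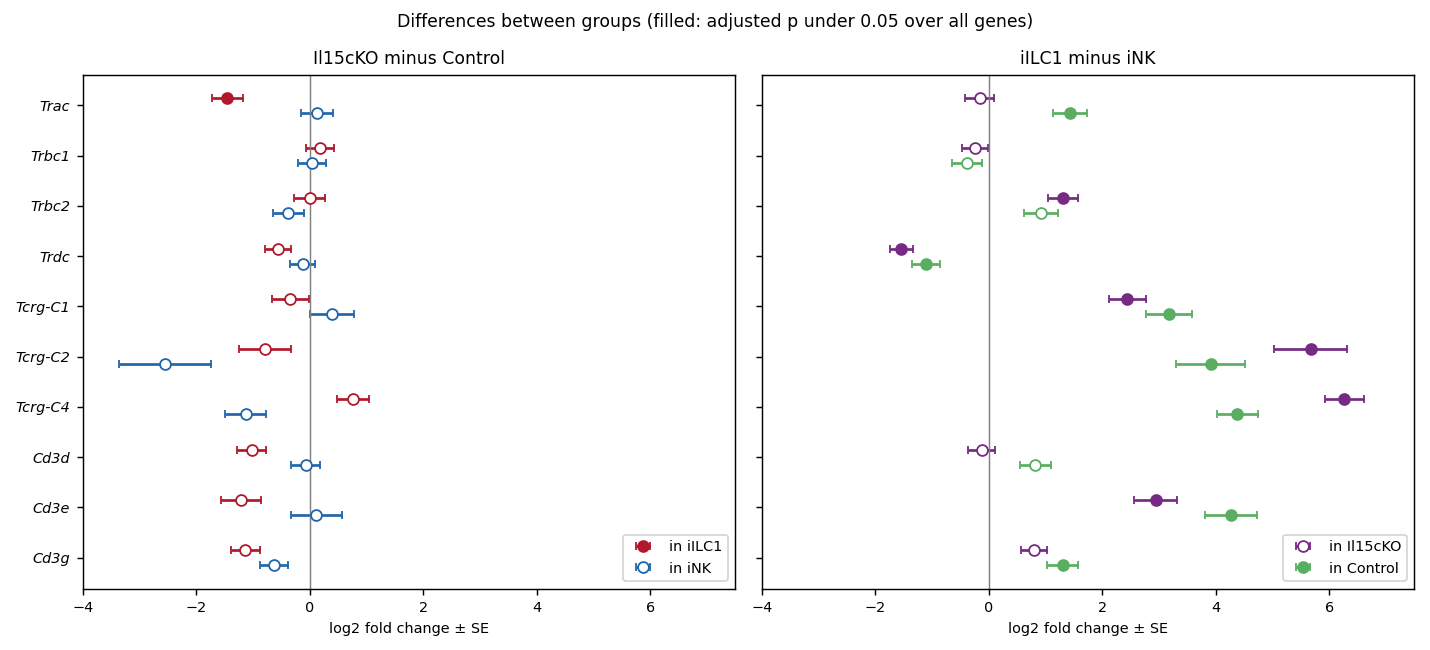
Points show log2 fold changes with their SE for each member (x axes), for Il15cKO minus Control within each cell type (left) and for iILC1 minus iNK within each genotype (right), and filled points passed the threshold over all genes. Trac and the 3 CD3 genes lie left of 0 for genotype in iILC1, and the gamma constant genes and Cd3e lie far right of 0 for cell type in both genotypes. The filled points of Tcrg-C2 for cell type are a description, since it passed the filter on low counts through iILC1.

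The estimates for cell type were lower in Il15cKO than in Control for 6 of the 10 members (Trac, Trdc, Tcrg-C1, Cd3d, Cd3e and Cd3g) and higher for 4, and no member passed the test of that difference. The log2 fold change of Trac for iILC1 against iNK was −0.15 (SE 0.255) in Il15cKO and 1.43 (SE 0.298) in Control. That of Cd3d was −0.13 (SE 0.238) in Il15cKO and 0.82 (SE 0.276) in Control, and that of Cd3g 0.80 (SE 0.236) in Il15cKO and 1.30 (SE 0.272) in Control. The difference between these effects is the interaction, which was −1.58 (SE 0.391) for Trac, −1.33 (SE 0.574) for Cd3e, −0.95 (SE 0.364) for Cd3d and −0.50 (SE 0.358) for Cd3g. It was −0.73 (SE 0.505) for Tcrg-C1 and −0.43 (SE 0.314) for Trdc. Tcrg-C4 had the largest positive interaction of the set at 1.89 (SE 0.458), also not called. Without Control iILC1 replicate 3, the Control cell-type calls of Trac and Trdc were lost.

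Markers of T cells were measured beside these differences, since a bulk library cannot tell fewer cells of a type from less RNA per cell. Of 10 listed T cell genes all were detected, and their sum was 337 to 524 CPM in Il15cKO iILC1, 323 to 524 in Control iILC1, 301 to 381 in Il15cKO iNK and 314 to 390 in Control iNK. Most of this sum came from Cd28, Icos and Ubash3a, which were high in all groups. The lineage markers were near 0 or low: Cd8a averaged 0.196 CPM in Il15cKO iILC1, 1.43 in Control iILC1, 0.401 in Il15cKO iNK and 0.109 in Control iNK, and Cd4 4.94, 4.43, 1.44 and 2.19 CPM. Of the 10 genes, 4 had a higher mean in Il15cKO iILC1 than in Control iILC1 and 6 a lower one, and only Cd6 did not overlap. Trat1 averaged 12.3 CPM in Il15cKO iILC1 against 7.93 CPM in Control iILC1, and Icos 104 against 65.2 CPM. Cd5 and Cd6, surface regulators of T cell receptor signals, were summed after their values were seen. Their sum was 10.8, 12.1, 11.3 and 10.6 CPM in Il15cKO iILC1, against 26.0, 15.5 and 32.6 CPM in Control iILC1. The summed alpha and beta variable segments were 104 to 144 CPM in Il15cKO iILC1 against 150 to 188 CPM in Control iILC1, also without overlap. This sum was not planned beforehand. Of its parts, Trbv was at 48.9 to 58.8 against 61.4 to 98.0 CPM, while Trav overlapped at 54.9 to 88.4 against 79.0 to 90.3 CPM. The joining segments overlapped too, Traj at 15.4 to 25.3 against 24.0 to 33.2 CPM and Trbj at 302 to 459 against 250 to 364 CPM. In Control iILC1, replicate 2 was the lowest and replicate 3 the highest library for Trac, Cd3d, Cd3e, for the Cd5 and Cd6 sum and for the variable segments. Replicate 2 was, however, the lowest of its group in 9 of the 10 members. The other 7 members, Cd3g among them, were highest in replicate 1 of Control iILC1. In Il15cKO iILC1 the order differed. Replicate 1 was the highest there in all 10 members but the lowest for the variable segments, at 104 CPM. Its Cd5 and Cd6 sum was 10.8 CPM, within the group's 10.6 to 12.1 CPM. The part of T cells in the differences of Trac and CD3 was not tested. Gamma delta T cell markers (7 of 8 listed in the table) summed to 63.3 to 85.6 CPM in Il15cKO iILC1, 63.2 to 88.1 in Control iILC1, 46.5 to 80.7 in Il15cKO iNK and 29.2 to 45.7 in Control iNK, and Sox13, which defines a subset of them, averaged 4.13, 3.70, 3.17 and 2.45 CPM. Their part in the gamma transcripts was not tested.

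**Figure D4:**
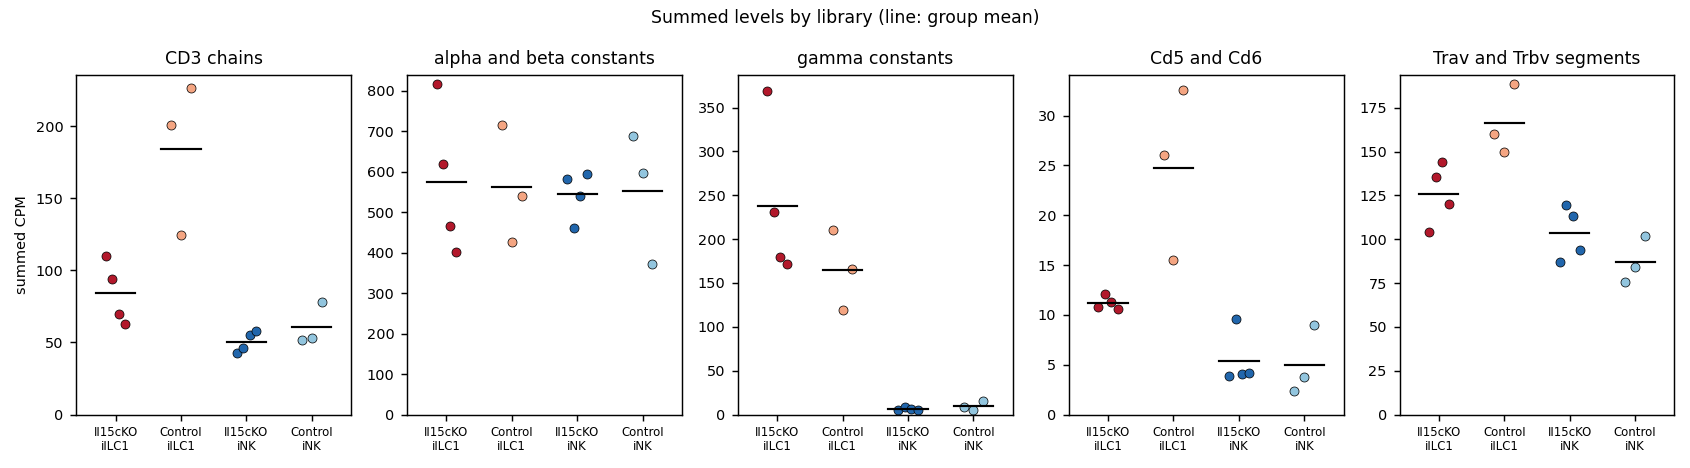
Points are libraries and lines group means of summed CPM (y axes, linear and starting at 0). The CD3 sum, the Cd5 and Cd6 sum and the Trav and Trbv sum were lower in all Il15cKO iILC1 than in all Control iILC1 libraries, the alpha and beta constant sum overlapped in all groups, and the gamma constant sum was high only in iILC1 libraries. Taken by itself, the Trav sum overlapped between the genotypes in iILC1. Cd5 and Cd6 were picked from 10 listed T cell genes after their values were seen. Of the 10 genes, 4 had a higher mean in Il15cKO iILC1 than in Control iILC1 and 6 a lower one. All 10 summed to 412 ± 80.8 CPM in Il15cKO iILC1 and 410 ± 103 CPM in Control iILC1 (SD).

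Genes that act beside the receptor were taken from a list of 49, of which 47 passed the filter. In iNK, 1 was called higher and 1 lower for genotype (0.408% of all genes called). The median log2 fold change was −0.13 for the list and 0.06 for all genes. Cd247, the gene of the zeta chain, had 84.3, 53.0, 64.5 and 84.7 CPM in Il15cKO iNK, against 163, 169 and 134 CPM in Control iNK. It fell by 1.11 on the log2 scale (SE 0.207, edgeR's adjusted p = 0.00551). Id3, an inhibitor of E proteins, had 26.3, 14.0, 17.8 and 28.3 CPM in Il15cKO iNK, against 6.25, 3.27 and 3.52 CPM in Control iNK, and rose by 2.31 (SE 0.346, edgeR's adjusted p = 0.000355). The sums of 3 marker lists did not overlap here either, that of the gamma delta T cell genes given above among them: 6 B cell genes had 163 to 225 CPM in Il15cKO iNK against 34.4 to 50.2 CPM in Control iNK, and 4 erythroid genes 67.4 to 507 CPM against 5.24 to 39.7 CPM. Their part in the values of Id3, Cd247 and Trdv4 was not tested. For genotype in iILC1, edgeR called 0 of 47 genes (0.0482% of all genes called), as did DESeq2, and 6 had an unadjusted p under 0.05 in edgeR's test. The medians were 0.12 for the list and 0.01 for all genes. Cd247 had 40.8 ± 6.73 CPM in Il15cKO iILC1 (n = 4) and 67.9 ± 6.26 CPM in Control iILC1 (SD, n = 3). The difference of −0.74 on the log2 scale (SE 0.211) did not pass (edgeR's adjusted p = 0.5).

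Between cell types, 7 list genes were called higher and 6 lower in Il15cKO iILC1 (3.42% of all genes called), and 34 were not called. In Control iILC1, 8 were called higher and 4 lower (3.91% of all genes called), and 35 were not called. The median log2 fold changes were 0.09 in Il15cKO and −0.08 in Control for the list, beside 0.01 and 0.16 for all genes. Bcl11b, a transcription factor required for T cell commitment and used by some innate lymphoid cells, averaged 45.5 ± 24.3 CPM in Il15cKO iILC1 against 5.83 ± 2.92 CPM in Il15cKO iNK, and 37.9 ± 11.5 CPM in Control iILC1 against 9.23 ± 0.555 CPM in Control iNK. It rose by 2.99 (SE 0.335, edgeR's adjusted p = 2.80e-07) in Il15cKO and by 2.03 (SE 0.377, adjusted p = 0.00125) in Control. Fyn and Syk, kinases of the receptor pathway, fell in both genotypes, Fyn by 1.30 in Il15cKO and 1.37 in Control and Syk by 1.00 and 1.19. Cd5 rose by 2.59 and Cd6 by 2.16 in Control iILC1 (edgeR's adjusted p = 0.0155 and 0.00681), and both calls were lost with the background covariate and without Control iILC1 replicate 3. Rag2, of the recombinase, and Ctla4, an inhibitory receptor, rose in Control iILC1 by 2.68 and 2.18 (edgeR's adjusted p = 0.0428 and 0.0161) at means of 3.52 and 5.98 CPM, against 0.533 and 1.28 CPM in Control iNK. The Rag2 call was lost with the background covariate and without any single Control library or Il15cKO iNK replicate 4 (adjusted p of edgeR up to 0.331), and that of Ctla4 without Control iILC1 replicate 1 or Control iNK replicate 1 or 2 (up to 0.108). Cd4 rose by 1.81 in Il15cKO iILC1 against Il15cKO iNK (edgeR's adjusted p = 0.0311), a call lost without Il15cKO iILC1 replicate 2 or 4 or Il15cKO iNK replicate 1, 2 or 4 (up to 0.171). Id3 fell by 2.40 there (edgeR's adjusted p = 3.43e-06). For Cd5 and Cd6 in Il15cKO the log2 fold changes were 1.46 and 0.93 and did not pass. Lck, Zap70 and Lat, the proximal kinases and the adaptor of the receptor, were not called in any comparison: Lck averaged 611, 703, 722 and 1038 CPM, Zap70 99.9, 106, 78.7 and 139 CPM and Lat 51.0, 39.5, 41.5 and 41.3 CPM in Il15cKO iILC1, Control iILC1, Il15cKO iNK and Control iNK. Rag1, the partner of Rag2, was also not called and averaged, in the same order, 13.3, 8.86, 13.4 and 10.3 CPM. Fcer1g, the other signal chain of the list, averaged 453, 321, 368 and 506 CPM, Tcf7 437, 363, 908 and 601 CPM and Gata3 117, 99.5, 73.04 and 86.7 CPM. Tcf7 fell by 1.05 in Il15cKO iILC1 against Il15cKO iNK (edgeR's adjusted p = 0.00782). Though not called, Zap70 was at 67.2 to 91.6 CPM in Il15cKO iNK against 121 to 151 CPM in Control iNK, without overlap. Of all genes, 4.75% were lower without overlap there, and the libraries of Lck and of Lat overlapped.

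The genes with the most similar pattern over the 14 libraries, by Pearson's r of log2(CPM + 1) among 10383 genes, differed between the sums. For the CD3 sum they were Entpd1 (r = 0.859), Tnfsf8 (0.855), Celsr1 (0.839), Jaml (0.830) and Adam19 (0.806). For the gamma and delta constants they were Tnfsf14 (r = 0.984), Wls (0.981), Armc7 (0.98), Cxcr3 (0.978) and Lyst (0.975). For the alpha and beta constants they were Ankmy2 (r = 0.940), Asb6 (0.932), Ankhd1 (0.925), Cln3 (0.922) and Nisch (0.919). The points share library, depth and cell type, so these values are a description.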

How the data were processed

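RNA was measured in 14 libraries of sorted bone marrow cells, amplified with SMART-Seq v4 and made into libraries with Nextera XT, per the labels' protocols. Reads were trimmed with Trimmomatic 0.33, aligned with HISAT2 2.1.0 to mm10 and counted with featureCounts of Subread 1.6.5, per the submitters' processing notes. The deposited values are raw counts per gene, with none normalised, per the file headers. The strand setting, the treatment of reads with several matches and the annotation release are not given in the sources used here. Neither kit marks the strand.

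Ensembl IDs were matched to GENCODE M21 symbols (97.97% matched). Counts were tested with edgeR 4.0.16 (quasi-likelihood F test, TMM, R 4.3.3) in 1 fit of all 14 libraries with 4 group means, over 26990 genes kept by filterByExpr (minimum count 10, minimum total 15), with Benjamini-Hochberg adjustment over these genes and a threshold of 0.05. The SE of a log2 fold change is its size divided by the square root of F. The biological coefficient of variation was 30.0% (common estimate), and the fit was tested on simulated data. Replicates differed by more than counting noise (chi-square per degree of freedom 4.97 to 27.1), so each library entered the fit on its own. The count ratios of Tcrg-C2 and Trgj4 instead used counts summed over the libraries of each group. Intervals and floors cover counting error only, so these intervals are too narrow for the spread between libraries.

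The members and gene lists were chosen with earlier results of these data known. All members and fixed pathway genes were named, plus up to 4 called list genes with the widest fold change per comparison and the 5 genes most alike in pattern. Cd6, Fyn, Syk and the single V and J segments were named after their values were seen. A called list gene that the rule names is not reported here. Alternatives were RLE scaling, DESeq2 1.42.0, no filter on low counts, a background covariate, copies summed, a replicate block and libraries left out. Those for single segments and pathway genes were added after the data were seen.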

Additional observations from a re-analysis of the deposited data

Results flagged for a closer look

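Trdc in Il15cKO iILC1 had 1 library, replicate 1, far from the others, at 36.8 CPM against 24.7 to 26.7 CPM in the other 3. Tcrg-C2 in Il15cKO iILC1 likewise had replicate 1 apart, at 13.7 CPM against 8.94 to 9.66 CPM. The limit used, Dixon's 95% critical value, by its definition marks about 1 in 20 groups by chance, and replicate 1 was the highest library of its group in all 10 members. The genotype effect of Id3 in iILC1 minus that in iNK was −2.46 on the log2 scale (SE 0.491, edgeR's adjusted p = 0.0408), with 3.55 to 4.93 CPM in Il15cKO iILC1 and 3.18 to 5.85 CPM in Control iILC1, against 14.0 to 28.3 CPM in Il15cKO iNK and 3.27 to 6.25 CPM in Control iNK. That call was lost under RLE scaling and without Il15cKO iILC1 replicate 2, Control iILC1 replicate 1 or 3, Il15cKO iNK replicate 1, 3 or 4, or Control iNK replicate 2 or 3 (adjusted p of edgeR up to 0.175). The genotype effect of Trdv4 in iILC1 minus that in iNK was 1.71 (SE 0.348, edgeR's adjusted p = 0.0448), a call lost under RLE scaling and in most fits without 1 library (up to 0.342).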

How the results depend on the processing

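No direction of a called result was reversed under any alternative run. The share of all genes called was counted only in the main fit. The counts below therefore do not show whether the members or all genes moved. Among the 10 members, DESeq2 called 1 for genotype in iNK (Tcrg-C2) against 0 by edgeR. For genotype in iILC1, where edgeR called 1, DESeq2 called 2, no filter on low counts 3, the background covariate 2, and the fit without Control iNK replicate 1 and Il15cKO iILC1 replicate 1 together 2. For the interaction, where edgeR called 0, each of DESeq2, no filter, the covariate and the fit without both libraries called 1. With copies summed into 1 Trbc and 1 gamma feature, 3 features were called for cell type in Il15cKO, against 6 members. Trdc and Cd3e kept their calls there, so only 1 of the Trbc and gamma features was called. The gamma sum was 171 to 369 CPM in Il15cKO iILC1 against 4.77 to 8.04 CPM in Il15cKO iNK. That of Trac, Trbc1 and Trbc2 overlapped, at 401 to 818 against 460 to 595 CPM. Of the pathway genes, the covariate called 5 for genotype in iNK against 2, 1 for genotype in iILC1 against 0, and 20 for cell type in Il15cKO against 13, and RLE scaling called 0 for the interaction against 1. DESeq2 called 4 variable and joining segments for cell type in Control, against 16 by edgeR, and 2 for genotype in iNK, against 1. The causes were not tested. With single libraries left out, members called were 0 to 0 for genotype in iNK, 0 to 2 for genotype in iILC1, 5 to 9 for cell type in Control, 6 to 7 for cell type in Il15cKO and 0 to 0 for the interaction, and pathway genes 2 to 3, 0 to 0, 7 to 15, 10 to 14 and 0 to 1. Trac for genotype in iILC1 had adjusted p of up to 0.811 over its alternatives. Cd3g gained its call there under DESeq2, no filter, the covariate and without Il15cKO iILC1 replicate 1. Trbc1 for cell type in Control was −0.39 and, with the covariate, 0.17, and the median of all genes there was 0.16 and, with the covariate, 0.004. The replicate block called 0, 1, 8, 7 and 0 members and 2, 0, 15, 15 and 1 pathway genes in the 5 comparisons. Deviations of same-numbered libraries correlated at −0.09 to 0.35, above 0.1 in 0 of 3, 2 of 3, 2 of 3 and 1 of 4 pairs, so the numbers were not taken as pairs. What an equal number stands for is not in the labels. Depth limits Tcrg-C1, Tcrg-C2, Tcrg-C4 and Cd3e in iNK, where counts per library were 0 to 61.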
